A study of Mus musculus with 6 samples.

Results

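A set of 9 genes that mark the exit from naive pluripotency and the first steps of germ layer formation were followed in a mouse embryonic stem cell line and in fetal gonadal somatic cells. They are Fgf5, Otx2, Pou3f1 and Zic2, of the primed state, and T (also named Tbxt), Eomes, Mixl1, Foxa2 and Gsc, of the primitive streak and its derivatives. The 9 genes were chosen by values measured on these same arrays, namely their level in the stem cells against the somatic cells and their spread among the stem cell arrays, so both are given as descriptions without a test. A probe was assigned to a gene through its transcript identifier, which gave 11 probes, a pair each for Eomes and Foxa2 and 1 for each other gene, out of 39429 gene probes on the array. Of the genes, 8 were among the 19670 genes tested, and Mixl1 was not, because its probe was not well above background on every array of either group.

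The soma group holds 3 samples of male gonadal somatic cells from embryos at E13.5 (an embryonic day), on an MCH x C57BL6/J background with the transgene Oct5<delta>PE-GFP. The 3 ESC samples are all of VR15, a single male embryonic stem cell line with the transgene Vasa::RFP. Its culture medium and feeder layer are not given in the sources used here, the labels name no treatment in either group, and p-values measure the spread between samples that the labels call biological replicates. Every array was hybridised with Cy3-labelled RNA made from 100 ng of total RNA.

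Naive stem cells resemble the epiblast before implantation, and they pass through a formative state to the primed state of the epiblast after implantation. On the way they lose factors such as Zfp42 and gain the growth factor gene Fgf5 and the transcription factor genes Otx2, Pou3f1 and Zic2. Nodal and Wnt signals then induce the primitive streak, in which the T-box genes T and Eomes and the homeobox genes Mixl1 and Gsc are switched on, with Foxa2 in the cells that form endoderm and axial mesoderm.

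The 75th percentile of the signal was between 1245 and 1388 on the soma arrays and between 959 and 1016 on the ESC arrays, and the share of gene probes well above background ran from 56.0% to 63.2%. The 3 ESC arrays lay on one slide and were read in one scan. Soma 3 was on that slide too but was read in another scan, and soma 1 and 2 were on a different slide, and no scan held both groups, whose effects cannot be told apart. In bulk RNA, fewer cells of a type and less RNA per cell cannot be told apart either. The labelled cell types were checked against markers. All 7 Sertoli genes tested were higher in soma (median log2 difference -6.33, or -5.83 with 4 genes at their bound). Cst9 was at least 827-fold lower in ESC, a bound that belongs to the scaling used and is defined with Zic2 below. Among 17 naive pluripotency genes, ESC exceeded soma for 15 and fell short of it for 1, and the last missed the threshold (limma, adjusted p under 0.05, against 46.6% of all genes higher and 38.3% lower).

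RefSeq promoter sequences (GRCm38.p6) were held for 6 of the 9 genes. The stretches of 250 bases before the start of T (chr17:8434173-8434422, plus strand), Eomes (chr9:118477939-118478188, plus strand) and Gsc (chr12:104473237-104473486, minus strand) are shown because these 3 genes differed most between the ESC arrays among the genes measured on all of them, and each has 1 start in the table. Capitals mark the motifs found on either strand.
T: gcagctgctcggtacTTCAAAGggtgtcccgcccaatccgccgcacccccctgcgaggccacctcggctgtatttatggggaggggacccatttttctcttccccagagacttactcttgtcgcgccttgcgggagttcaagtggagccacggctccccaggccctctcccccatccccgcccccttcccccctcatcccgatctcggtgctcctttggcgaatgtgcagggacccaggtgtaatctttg
Eomes: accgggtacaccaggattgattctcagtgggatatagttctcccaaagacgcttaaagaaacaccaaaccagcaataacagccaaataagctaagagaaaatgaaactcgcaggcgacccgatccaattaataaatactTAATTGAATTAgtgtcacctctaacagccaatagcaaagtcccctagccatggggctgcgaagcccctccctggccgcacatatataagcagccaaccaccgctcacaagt
Gsc: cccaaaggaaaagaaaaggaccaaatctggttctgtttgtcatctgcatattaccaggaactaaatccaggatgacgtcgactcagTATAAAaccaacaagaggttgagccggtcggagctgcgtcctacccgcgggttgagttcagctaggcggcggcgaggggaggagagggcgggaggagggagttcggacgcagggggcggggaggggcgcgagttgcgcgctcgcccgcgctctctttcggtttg
The motifs searched were the TCF/LEF site of Wnt signalling (CAAAG after AA, AT, TA or TT), the SMAD forms GTCTAGAC and GTCTGGAC, the FOXH1 forms AATCCACA and AATACACA, the T-box site TCACACCT, the paired-type homeodomain palindrome (TAAT and its complement around 3 free bases) and the TATA box TATAAA. None overlapped another in these stretches. T held 1 TCF/LEF site, which 14.8% of 32851 promoters also hold. Eomes held 1 paired-type palindrome, a motif found in 0.463% of promoters. Gsc held 1 match to the letters TATAAA, as 12.4% of promoters do. The match was taken anywhere in the 250 bases, its distance from the start was not weighed, and other forms of the TATA box were not searched. The 3 stretches differ in base makeup, with 14 CpG dinucleotides before T, 8 before Eomes and 22 before Gsc, where the median of all promoters is 6. These matches describe the letters and not bound sites.

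The 8 genes tested stood higher in ESC than in soma, and on every ESC array the value lay above every soma array. Mixl1 was well above background only on ESC 2 and 3, and its value on ESC 1 has no order against soma. The ESC mean of each of the 8 genes tested was at least 2-fold above the soma mean, as it was for 24.4% of all genes tested. Over all genes, 54.3% had a higher mean in ESC and 47.7% had all ESC arrays above all soma arrays, while groups did not overlap in either direction for 87.2%. Since the genes were named with this difference known, nothing is read from the count. Levels below are log2 signals relative to the array's 75th percentile.

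**Figure D1:**
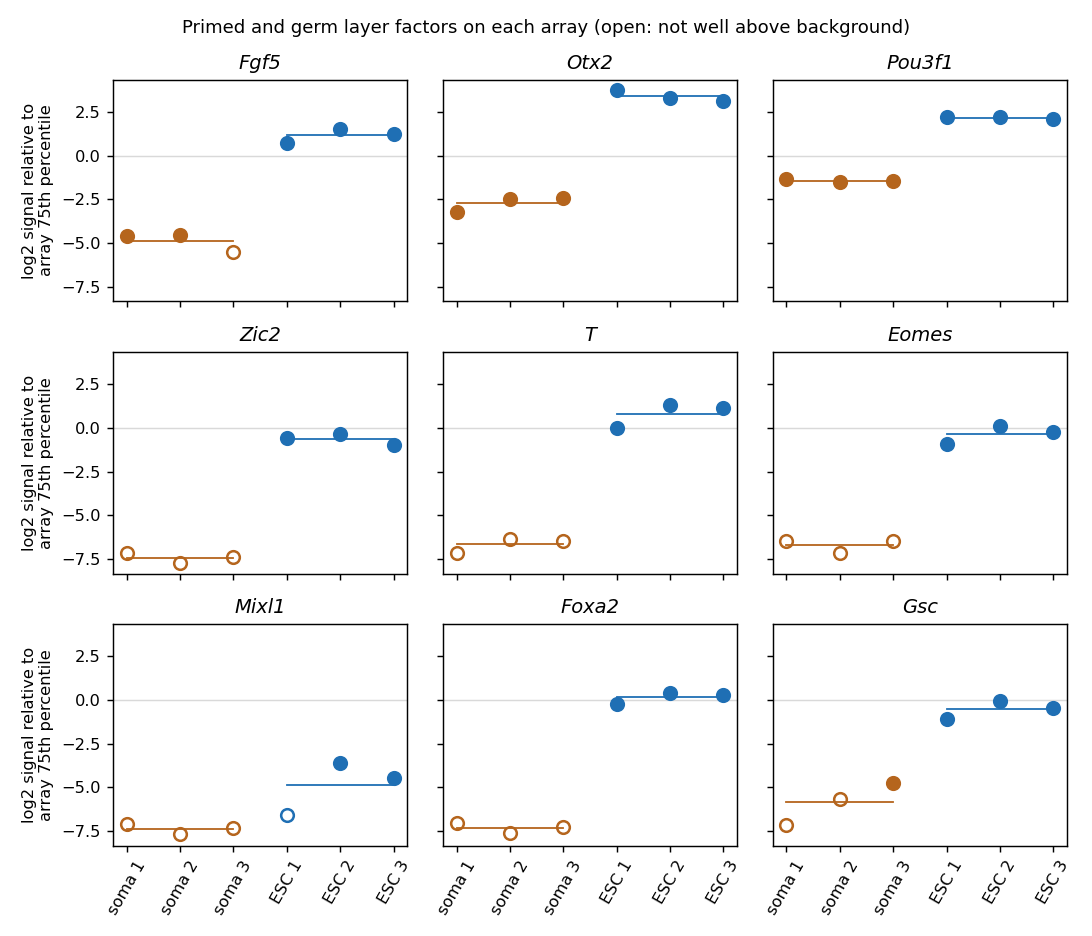
Level of each of the 9 genes on each array, as the log2 signal relative to the array's 75th percentile (y axis) for soma 1 to 3 and ESC 1 to 3 (x axis), with group means as lines and open points where the probe was not well above background. Otx2 and Pou3f1 were measured on all 6 arrays, Zic2, T, Eomes, Mixl1 and Foxa2 on none of the soma arrays, and ESC 1 is the lowest ESC array for T, Eomes, Mixl1, Gsc, Foxa2 and Fgf5.

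Among the genes of the primed state, Fgf5, which encodes a secreted growth factor and is the standard mark of the epiblast after implantation, had levels of -4.58, -4.51 and -5.49 on soma 1 to 3. On ESC 1 to 3 it stood at 0.71, 1.53 and 1.24. The groups did not overlap, and 2 of the 3 soma arrays were well above background. The means differed by 64.8-fold (log2 difference 6.02 ± 0.40, SE, n = 3 per group), or 4.48 with normexp background correction.

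Otx2 encodes a homeodomain factor that helps move cells from the naive to the primed state and later patterns the forebrain. Its processed signals, before scaling, were 146, 252 and 237 on soma 1 to 3. On ESC 1 to 3 they were 13660, 9408 and 8242. It was well above background on all 6 arrays, so that both sides were measured, and ESC 1 was the highest array. After scaling, ESC stood 66.6-fold above soma (log2 difference 6.06 ± 0.32, SE, n = 3 per group).

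Pou3f1, the gene of the POU factor Oct6, was the steadiest of the 9. Its levels were -1.33, -1.52 and -1.46 on soma 1 to 3. ESC 1 to 3 gave 2.20, 2.20 and 2.07. It was well above background on all 6 arrays, and the groups differed by 12.0-fold (log2 difference 3.59 ± 0.07, SE, n = 3 per group).

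Zic2, the gene of a zinc finger factor of the early epiblast and neural plate, had no soma array well above background (-7.16, -7.74 and -7.39 on soma 1 to 3). On ESC 1 to 3 it stood at -0.58, -0.37 and -0.97, with ESC 3 the lowest. It was at least 24.8-fold higher in ESC. Such a bound sets the ESC mean against a soma mean that takes, on each array, the detection limit (the dimmest probe called well above background) or the probe's own value, whichever is higher, and it belongs to this scaling. With normexp the log2 difference was 3.39, which is short of the bound's 4.63.

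Of the streak genes, T encodes the T-box factor Brachyury, which drives mesoderm formation and movement through the streak. It was not well above background on soma (-7.12, -6.37 and -6.44 on soma 1 to 3) and stood at -0.01, 1.27 and 1.11 on ESC 1 to 3. ESC 1 lay apart from the other two, which were 2.43-fold and 2.18-fold brighter. T was at least 66.9-fold higher in ESC than in soma on this scale, and with normexp the log2 difference was 4.66, short of the bound's 6.06.

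Eomes, the T-box gene of anterior streak, endoderm and trophoblast, was read by a pair of probes. The brighter had levels of -6.46, -7.13 and -6.44 on soma 1 to 3, none well above background, and of -0.94, 0.09 and -0.25 on ESC 1 to 3. The dimmer had -2.91, -1.96 and -2.31 on ESC 1 to 3. Both placed ESC 1 lowest and ESC 2 highest, by 2.04-fold and 1.93-fold, and gave at least 30.0-fold and at least 7.35-fold over soma on this scale. With normexp the log2 difference of the brighter was 3.76, short of its bound's 4.91. The bound of the dimmer probe is smaller because its ESC signal sits nearer the limit of detection.

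Mixl1, a paired-type homeobox gene of nascent mesoderm and endoderm, was the dimmest of the 9 in relation to background. It was not well above background on any soma array (-7.11, -7.67 and -7.30) or on ESC 1 (-6.54), and it was on ESC 2 (-3.59) and ESC 3 (-4.44). Its ESC arrays spanned 7.73-fold, where ESC 1 is below the limit and its value has no exact meaning. The ESC mean stood 1.33-fold above the mean of the soma detection limits, with 2 of 3 ESC arrays measured. Because ESC 1 entered that mean at its own value below detection, the figure is not a bound.

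Foxa2, a forkhead gene of endoderm, node and notochord, had a pair of probes that ordered the arrays alike. The brighter stood at -7.02, -7.60 and -7.23 on soma 1 to 3, none well above background, and at -0.23, 0.37 and 0.26 on ESC 1 to 3. The dimmer stood at -2.08, -1.46 and -1.57 on ESC 1 to 3. ESC 1 was lowest by both, ESC 2 was 1.52-fold and 1.55-fold above it, and the bounds over soma were at least 42.4-fold and at least 11.9-fold on this scale. With normexp the log2 difference of the brighter was 4.04, short of its bound's 5.41.

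Gsc encodes the homeodomain repressor goosecoid of the organiser. Its levels were -7.16, -5.65 and -4.73 on soma 1 to 3, of which only soma 3 was well above background, and -1.08, -0.06 and -0.48 on ESC 1 to 3. Against soma 3 alone, the one soma array that measured it, the ESC mean was 4.19 higher on the log2 scale. The log2 difference between all 3 arrays of each group was 5.31, or 3.28 with normexp, and rests on 2 soma values below detection.

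ESC 1 was the lowest ESC array for 5 of the 8 genes measured on all ESC arrays, namely Fgf5, T, Eomes, Foxa2 and Gsc, and for Mixl1 as well, while 29.3% of 17487 genes well above background on all ESC arrays had ESC 1 lowest. ESC 2 was the highest for 7 of the 8, against 24.7% of genes, and 5 met both, against 14.2%. Otx2 alone of the 8 was highest on ESC 1, as 44.6% of genes were. The ESC arrays spanned 2-fold or more for T, Eomes and Gsc, 3 of the 8, against 1.51% of genes. The spread was among the values that chose the genes, so these counts are descriptions. T had an SD of 0.70 over the ESC arrays on the log2 scale, larger than that of 99.3% of those genes, where the median gene had an SD of 0.08. Eomes (0.52) lay above 98.5% of genes, Gsc (0.51) above 98.4%, Fgf5 (0.42) above 97.1%, Otx2 (0.34) above 94.9%, Foxa2 (0.32) above 94.4% and Zic2 (0.30) above 93.6%. Pou3f1 (0.08) lay above 46.2%, close to the middle of all genes.

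Otx2 ran the other way from the streak genes. It was 1.39-fold brighter on ESC 1 than on ESC 2 and 1.56-fold brighter than on ESC 3. Zic2 was 1.16-fold brighter on ESC 2 than on ESC 1 and 1.31-fold brighter on ESC 1 than on ESC 3, so it followed neither. By the size of ESC 2 minus ESC 1, T ranked at 31, Eomes at 83, Gsc at 87, Fgf5 at 179 and Foxa2 at 394 among the 17487 genes, counted from the largest, and Otx2 ranked at 284 counted from the other end.

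**Figure D2:**
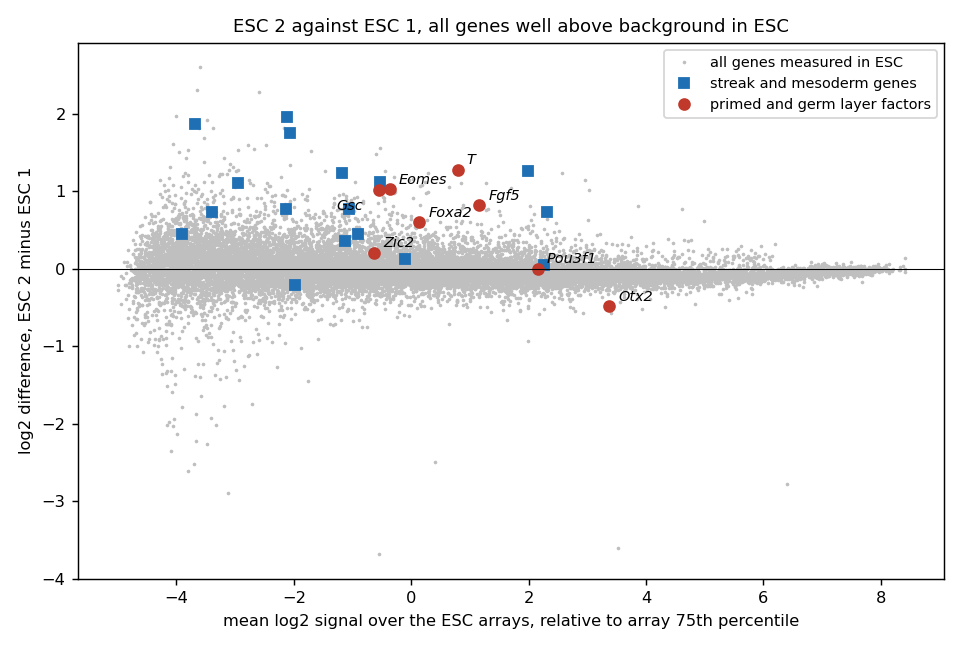
Log2 difference between ESC 2 and ESC 1 (y axis) against the mean log2 signal over the ESC arrays relative to the 75th percentile (x axis), for 17487 genes well above background on all ESC arrays, with 8 primed and germ layer factors in red and 17 streak and mesoderm genes in blue. T, Eomes, Gsc, Fgf5 and Foxa2 lie above most genes of like signal, Pou3f1 and Zic2 lie nearer 0 and Otx2 lies below it, and dim genes scatter more widely on both sides.

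The other genes of each stage were taken from lists, which were chosen with earlier results of these data known, so their counts are descriptions as well. Of 17 streak and mesoderm genes measured on all ESC arrays, 16 were lowest on ESC 1, against 29.3% of all genes measured there. The list median was 0.77 for ESC 2 minus ESC 1 and 0.67 for ESC 3 minus ESC 1. The same medians over all genes were -0.04 and -0.02. Fgf8, a growth factor gene of the streak, stood at 1.23, 2.50 and 2.25 on ESC 1 to 3, and Cer1, which encodes a secreted antagonist of Nodal, at -1.51, -0.73 and -0.96. Dll1, a Notch ligand gene, was the exception, at -1.74, -1.95 and -2.24. The Wnt ligand gene Wnt3 stood at -1.92, -0.68 and -0.92, Cdx2 at -3.33, -1.37 and -1.67, Evx1 at -2.99, -1.23 and -1.95 and Mesp1 at -4.72, -2.85 and -3.50, 4 genes named after their values were seen. Cdx2, Evx1 and Mesp1 encode transcription factors of posterior streak and early mesoderm.

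Of 9 endoderm genes measured in ESC, 7 were lowest on ESC 1, against 29.3% of all genes (median 0.68 for ESC 2 minus ESC 1, or 0.28 with normexp). Sox17, Gata4 and Gata6, factors of endoderm that were named after their values were seen, stood 1.08, 1.08 and 0.93 higher on ESC 2 than on ESC 1 on the log2 scale. Their ESC 1 levels were -3.26, -4.79 and -3.55, where the dimmest probe well above background on that array stood at -4.93. Foxa1, Foxa3, Cxcr4 and Dab2, also lowest on ESC 1, stood at -4.55, -4.36, -4.47 and -4.50 there. The liver and visceral endoderm factor Hnf4a differed by -0.05. Naive genes ran the opposite way by smaller amounts. Of 17, 16 were lowest on ESC 2, where 42.9% of all genes were, and 1 (Nanog) on ESC 1, with a median of -0.17 for ESC 2 minus ESC 1. The count on ESC 2, taken after the values were seen, was 14 with quantile normalization, 16 with median scaling and 15 with spike-in scaling, where 37.6%, 62.8% and 20.8% of all genes were lowest there. The summed linear signal of the list was 224, 196 and 214 times the 75th percentile on ESC 1 to 3. Of the 17 other primed genes 4 were lowest on ESC 1 (median -0.11), and of 6 neuroectoderm genes 4 were (median 0.03).

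**Figure D3:**
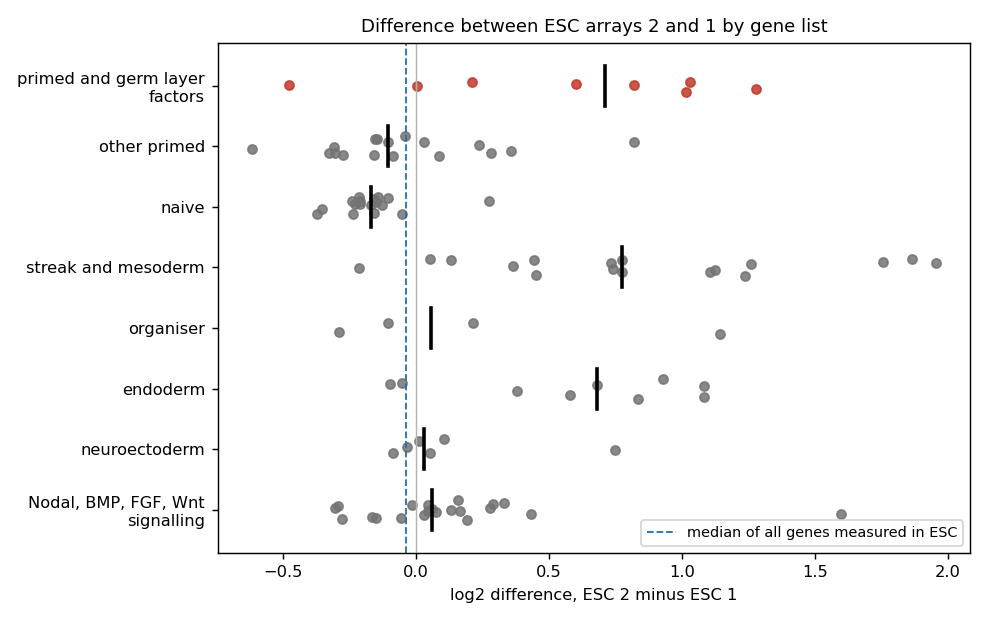
Log2 difference between ESC 2 and ESC 1 (x axis) for each gene measured on all ESC arrays, by gene list (y axis), with list medians as black bars and the median of all such genes as a dashed line. The medians are 0.71 for the primed and germ layer factors, 0.77 for streak and mesoderm and 0.68 for endoderm, against -0.11 for other primed genes and -0.17 for naive genes.

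The genes with the largest ESC 2 minus ESC 1 hold several of these. Among the 175 genes (1% of those measured in ESC) with the largest values were 3 of the 8 factors (T, Eomes and Gsc), 7 of the 17 streak and mesoderm genes and 4 of the 9 endoderm genes. These make up 1.71%, 4% and 2.29% of the 175. Also among them were 1 of 4 organiser genes (Dkk1) and 1 of 21 signalling genes (Bmp2), and none of the 17 naive, 17 other primed or 6 neuroectoderm genes. The 175 genes with the largest ESC 3 minus ESC 1 held 2 of the factors, 8 streak and mesoderm genes and 2 endoderm genes. In both sets of 175 were 2 factors, 7 streak and mesoderm genes and only 1 endoderm gene. The largest ESC 2 minus ESC 1 of a gene with a symbol was 2.60, for Hivep2, which is in none of the lists. Cyp26a1, whose enzyme degrades retinoic acid in the early embryo, stood at -1.35, 0.20 and -0.46 on ESC 1 to 3 and the Wnt agonist gene Rspo3 at -2.61, -1.08 and -1.41, both named after their values were seen. The share of gene probes well above background was 56.0%, 60.9% and 57.5% on ESC 1 to 3, and the dimmest such probe stood at -4.93, -5.38 and -5.09 on the log2 scale, so the detection limit moved with the same arrays, and its part was not tested. With normexp, which lifts dim signals, the streak and mesoderm median was 0.55 and ESC 1 was still lowest for 16 of 17. Under scaling to the spike-in RNA, 55.8% of all genes were lowest on ESC 1, and the streak and mesoderm median was 0.87. Fibroblast markers, which a feeder layer would carry, had a summed linear signal of 84.7, 84.8 and 84.8 times the 75th percentile on ESC 1 to 3. That sum is mostly Fn1 (5.85, 5.89 and 5.86 on the log2 scale). The matrix genes Dcn (-1.14, -2.05 and -1.60), Lum (-3.12, -3.98 and -3.39) and Col3a1 (0.06, -0.50 and -0.17) were highest on ESC 1 and lowest on ESC 2. The list did not share 1 order. Of all 11 markers, 7 were lowest on ESC 2, as 42.9% of all genes were, and 2 on ESC 1. Another order, highest on ESC 2, held for 4 of the 11, against 24.7% of all genes. The list median was -0.09 for ESC 2 minus ESC 1, against -0.04 for all genes. Any part of the shift in Dcn, Lum and Col3a1 in the streak and endoderm values was not tested. Fn1 and Lum were named after their values were seen. All 11 markers were well above background on every ESC array.

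Against soma, the same lists placed ESC as follows, with limma adjusted p under 0.05 as the threshold. Over all genes tested 84.9% passed, so that a passing gene is the rule on these arrays, and the sizes carry the description. Bounds again belong to this scaling, and with normexp the differences of Zic2, T, Eomes and Foxa2 fell short of theirs. Of 17 other primed genes 12 rose in ESC and 5 fell (median log2 difference 4.40, or 3.33 with bounds). Foxd3, a forkhead gene of the epiblast, was at least 32.5-fold higher. Dnmt3a, a gene of a de novo DNA methyltransferase, fell by 3.27 ± 0.05 and Sall2 fell by 2.20 ± 0.08 (SE, n = 3 per group). Dnmt3b, the gene of another such enzyme in this list, went the other way and rose by 4.59 ± 0.09. It was named after its values were seen. In the naive list the largest values were those of Fgf4, at least 792-fold higher, and Zfp42, while Nanog was 2.84-fold lower in ESC on its probe.

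Of 21 streak and mesoderm genes 17 were tested, of which 13 rose in ESC, 2 fell and 2 did not pass. Of the 13, 8 were not well above background on every soma array, and over probes that were so on all 6 arrays 5 of 9 rose. The median over the 17 was 3.51, or 2.70 with bounds and 2.04 under normexp, and 1.95 over all 21 without a filter. Cer1 was at least 18.4-fold higher in ESC and Fgf8 rose by 5.86 ± 0.34, while Snai1, which drives the loss of epithelial junctions, fell by 2.03 ± 0.11 and the apelin receptor gene Aplnr fell by 1.52 ± 0.29 (SE, n = 3 per group). Aplnr did not pass when only the shared slide was used (adjusted p 0.0646). The organiser list held 5 tested genes, of which none rose, 2 fell and 3 did not pass. Dkk1, which encodes a Wnt antagonist, fell by 3.26 and Frzb fell by 2.25. With quantile normalization, median scaling or normexp, or without soma 3 or ESC 1, 1 gene of this list rose.

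Endoderm genes went both ways, with 4 of 10 higher in ESC, 5 lower and 1 that did not pass (median -0.79). The median was -0.22 without a filter, -0.43 with normexp, -1.29 on the shared slide alone and -1.36 over probes well above background on all 6 arrays, where 2 of 7 were higher. Without ESC 1 it was -0.53. Hnf4a was at least 17.8-fold higher and Foxa1 at least 2.36-fold higher, while Gata4 fell by 7.14 and Dab2 fell by 5.48. Gata4 is also a gene of gonadal somatic cells, in which it stood between 2.87 and 2.99. Only 6 of 15 neuroectoderm genes were tested, since the other 9 were not well above background on all arrays of either group, among them Pax6, Six3 and Otx1. Of the 6, 4 rose, 1 fell and 1 did not pass (median 1.32, or 0.67 with bounds). Zic1 rose by 3.15, and the intermediate filament gene Nes fell by 1.54.

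The signalling list held 21 genes of the Nodal, BMP, FGF and Wnt pathways, all tested. It mixes ligands, receptors and transducers with inhibitors and targets such as Lefty1 and Smad7. Wnt is represented by the target Axin2 alone and FGF by receptors alone. Of the list, 11 were higher in ESC and 10 lower (median 0.59, or 0.37 under both spike-in scaling and normexp and 0.08 over probes well above background on all 6 arrays). The ligand gene Nodal rose by 6.29 ± 0.08 and its relative Gdf3 by 6.93 ± 0.14 (SE, n = 3 per group). Nodal itself was steady on ESC 1 to 3, at 2.83, 2.86 and 2.83. The transducer gene Smad3 fell by 2.66 and the ligand gene Bmp2 fell by 2.26. Bmp2 stood at -3.66, -2.06 and -2.61 on ESC 1 to 3, the widest range of the list, and its adjusted p was 0.0507 when only the shared slide was used.

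**Figure D4:**
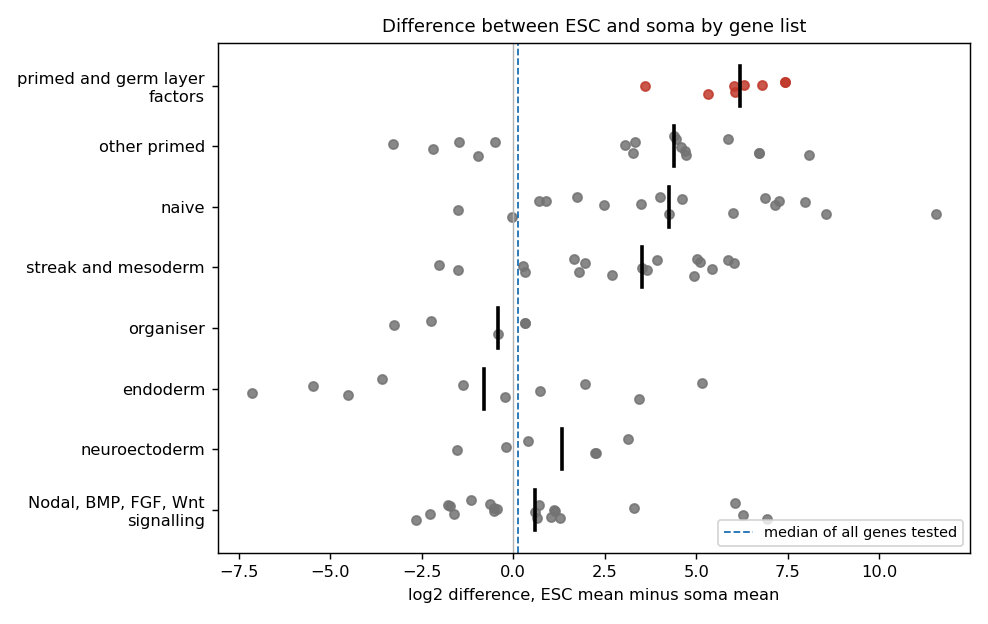
Log2 difference between the ESC mean and the soma mean (x axis) for each gene tested, by gene list (y axis), with list medians as black bars and the median of all genes tested as a dashed line. The medians are 6.19 for the 8 primed and germ layer factors (5.36 with the 4 that were not measured in soma at their bounds), 4.40 for other primed, 4.27 for naive and 3.51 for streak and mesoderm genes, and organiser (-0.41) and endoderm (-0.79) medians lie below 0.

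Markers of other cell types were read beside these. In the trophoblast list, where 4 could be tested, 2 genes rose and 1 fell, with Ascl2 at 3.97, Tead4 at 3.06 and Gata3 at -0.55, and Elf5, Hand1 and Tpbpa were not well above background on all arrays of either group. Gata3 did not pass under quantile normalization (adjusted p 0.0555), with the slide as a block (0.0865) or on the shared slide alone (0.134). Of 11 fibroblast genes 3 rose and 8 fell, with S100a4 at 4.76, Thy1 at 4.60, Dcn at -6.57 and Col3a1 at -6.00. Of 8 germ cell genes 3 rose, 2 fell and 3 did not pass. Mael stood at 1.42 and Piwil2 at 1.06, and both missed the threshold with the slide as a block (adjusted p 0.0935 and 0.168). Dazl fell by 2.06, and soma exceeded ESC at least 16.2-fold for Nanos2. The summed linear signal of the germ cell list was 4.21, 5.65 and 8.14 times the 75th percentile on soma 1 to 3. It was highest on soma 3, the one soma array with Gsc well above background, and its part in that was not tested.

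Profiles like those of the 8 genes were sought as the root mean square difference over the 6 arrays after centring each gene on its mean. For Eomes the closest were Cyp26a1 (0.20 on the log2 scale) and the Wnt ligand gene Wnt8a (0.23). For Fgf5 they were the kinase gene Pim2 (0.24) and Cer1 (0.24), for Foxa2 the claudin gene Cldn6 (0.08) and Foxn4 (0.15), and for T the transcription factor gene Tfap2c (0.36) and Trim67 (0.39). Gsc was closest to Slc34a3 (0.32) and Elovl7 (0.36), Otx2 to Lrriq4 (0.15) and Oas1a (0.18), Pou3f1 to Gtf2a1l (0.06) and Nupr1 (0.07), and Zic2 to Pramel31 (0.15) and Pramel39 (0.17). The last are members of a multigene family whose copies may share signal on the array. For Zic2, T, Eomes and Foxa2, and for Cer1, Lrriq4, Gtf2a1l, Trim67, Cyp26a1, Wnt8a, Cldn6, Foxn4, Elovl7 and both Pramel genes, no soma array was well above background, so the soma part of these distances rests on values below detection. With 2 groups of 3, a likeness mostly reflects the size of the difference between groups.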

How the data were processed

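RNA from 3 soma and 3 ESC samples was read on 1-colour Agilent arrays. The scanner output is a processed intensity made by Feature Extraction version 10.7.3.1, per the file headers, with background and spatial trend subtracted and arrays put on no common scale. The deposited value table holds log2 values whose making is not stated. At least 99.97% of them matched, to within 0.01, the log2 processed intensity after removal of the 75th percentile per array and the median per probe, and the table served as an alternative.

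The log2 processed signal less the array's 75th percentile was averaged over spots of a probe, without 1377 control spots and spots marked as outliers. Probes well above background on all arrays of at least 1 group were kept (24150 of 39429), and a gene was represented by its brightest. Symbols came from transcript identifiers matched to a gene table of GRCm38.p6 (66.1% of probes). The grid was built on an earlier assembly and no probe coordinates were used. The comparison of ESC and soma used limma 3.58.1 under R 4.3.3 (two-sided, Benjamini-Hochberg over 19670 genes, threshold 0.05). SEs of the primed and germ layer factors are those of the 2 group means, and SEs of other genes those of the fit. No feature was saturated.

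The 9 factors, the gene lists and the naming rule were chosen with earlier results of these data known. The rule names the 9 factors, the 2 largest passing differences in each direction of each list, and the 2 nearest profiles of each factor. Some genes that the rule names are not reported here. Alternatives covered scaling, normexp (offset 50, on the median signal), dim-probe filters, the mean of probes, slide, scan and replicate number as blocks, and each array left out. Precision is limited by how few arrays there are.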

Additional observations from a re-analysis of the deposited data

How the results depend on the processing

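All 8 factors tested stood higher in ESC under every alternative in which they were tested. When only probes well above background on all 6 arrays were used, Otx2 and Pou3f1 were left, so 2 factors stood higher and 0 had ESC 1 as the lowest ESC array. Without a filter the counts were 9 and 6. With each array left out in turn, 8 to 9 factors stood higher and 5 to 7 were lowest on ESC 1, which could not be asked without ESC 1. Without ESC 2 or ESC 3, the lowest is the lower of only 2 arrays. ESC 1 was then lowest for 44.9% and 39.8% of the genes measured in ESC, against 29.3% with no array left out, so these counts are not like the others. The genes called between ESC and soma numbered 16709, and 16178 to 16647 with an array left out, 13664 under the stricter filter, 17688 with none, and 15537 and 15212 with the slide as a block or the shared slide alone, where soma 3 is the lone soma array and is assumed to vary as the others do. The median difference of all genes, 0.14, was 0.02 under quantile normalization, 0.34 under median scaling and -0.08 under spike-in scaling. Samples with the same replicate number shared only a number (correlations of their deviations -0.05, 0.07 and 0.03), and with the number as a block 16476 genes were called. Of 655 values of named genes under an alternative, 646 kept their side of the threshold, 9 lost it and 0 reversed. Normexp gave the smallest difference for each of the 8 factors (3.28 for Gsc to 5.55 for Otx2). In all, 81 of 936 values without a test and 50 of 917 counts moved. Among these, a reversal was looked for only in the ESC minus soma differences of the 8 factors, and 0 reversed. The median difference of all genes did change sign under spike-in scaling.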
